A study of Mus musculus with 12 samples.

Results

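In the authors' deposited table, 706 regions with few listed CpG sites differed in methylation between liver tumors of arsenite-line and of control-line mice. They were chosen from the 1547 regions of the tumor comparison by 2 properties, fewer than 10 CpG sites and a distance of more than 10 kb and at most 100 kb from the nearest transcription start site (TSS). They make up 45.6% of the tumor list and are called distal CpG-poor regions here. CpG-poor refers to the number of sites listed for a region and not to their density. The median density was 3.70 listed sites per 100 bp, against 6.28 in tumor regions with 10 or more sites. Distal refers to the TSS that the authors listed, and 99 regions lay within 10 kb of some RefSeq gene start. Neither property uses the size or the sign of the methylation difference, although every region is in the list because it differed: none of the 706 differences in that table was smaller than 20 percentage points.

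The tumors (AATt, 3 samples) came from C3H/HeN males aged 74 weeks of the second generation (F2), born to F1 mice that had been exposed to arsenite in the womb. They were set against 3 tumors of the control line (CCTt), which belong to an earlier series and were not analysed here as samples. The non-tumor liver groups AATn and CCTn and the normal liver groups AAN and CCN, 3 samples each, enter only where their lists hold the same positions, and CCN too was deposited earlier. Methylation was read by reduced-representation bisulfite sequencing, in which DNA is cut with MspI at CCGG before bisulfite turns unmethylated cytosines into thymines, so CpG sites far from such cuts are not seen.

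Each value is 1 difference for a whole comparison of 3 tumors with 3, in percentage points of methylation, with no value per sample. No standard deviation, read depth or test over samples can be given, and the labels do not say whether the 3 tumors of a group came from 3 mice. Positive values are taken to mean more methylation in arsenite-line tumors than in control-line tumors. The sources used here leave that sign undefined, and with the opposite sign each direction below turns over. Bulk tumor tissue was used, so a change of methylation within a cell type and a change in the mix of cells cannot be told apart.

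In mammalian genomes most CpG sites outside CpG islands carry methylation, and CpG-poor DNA away from promoters is the part that tumors most often demethylate. Enhancers lie in such DNA, within introns or between genes, and their methylation usually falls when they are bound by transcription factors. Whether the regions described here are enhancers was not tested. A region is named below by the gene whose TSS is nearest, which need not be the gene it acts on, if it acts on any.

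Of these regions, 5 reach into a promoter window of the RefSeq table (GRCm38.p6, the same assembly as mm10), which spans 250 bases before to 50 bases after a gene start. The shared stretches of 4 of them are shown here because these regions cross or lie within 50 bases of a start other than the one the authors' table listed. Each is written 5′ to 3′ on the strand of the gene that starts there, with CpG sites in capitals, and the fifth shares only 4 bases with the window of Gm30059.
Gm46536, chr15:97991343-97991460, plus strand: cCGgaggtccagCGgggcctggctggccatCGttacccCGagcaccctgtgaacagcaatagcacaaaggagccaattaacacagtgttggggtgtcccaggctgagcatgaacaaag
Gm39786, chr2:30996560-30996656, minus strand: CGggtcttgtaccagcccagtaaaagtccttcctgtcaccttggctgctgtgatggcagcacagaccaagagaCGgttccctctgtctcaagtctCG
Gm31455, chr6:50822203-50822293, minus strand: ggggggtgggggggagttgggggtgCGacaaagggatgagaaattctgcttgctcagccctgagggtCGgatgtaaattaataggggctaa
Tenm4, chr7:96171276-96171293, plus strand: cCGggccactaagagaca

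The first stretch holds 4 CpG sites, 1 of them inside a CCGG, the cutting site of MspI, and runs from 68 bases before to 49 bases after the start of the long noncoding RNA gene Gm46536. The authors' deposited table listed its region (8 CpG sites, -23.5 points) 13058 bp downstream of the cartilage collagen gene Col2a1. Another CpG-poor region 5713 bp away, outside the distance window, was negative too (-25.1 points). The Gm39786 stretch, with 3 CpG sites, belongs to a region listed 14254 bp downstream of Usp20, a deubiquitinase gene, at 25.5 points. A CpG-dense region with 12 sites, 655 bp from it, was positive at 34.3 points in the authors' deposited table. The Gm31455 stretch has 2 CpG sites, and its region, listed for C530044C16Rik, was negative (-28.4 points). The last stretch, which begins 32 bases after an upstream start of Tenm4, a teneurin adhesion gene, holds 1 CpG site, which is also inside a CCGG. Its region (20.99 points, 6 sites) was listed 39201 bp upstream of another Tenm4 TSS in the authors' table. CG was found in 83.8%, 80.7%, 79.7% and 47.2% of all 32851 windows at the positions of these 4 stretches, in the order shown, and CCGG in 37.8% at that of Gm46536 and 8.15% at that of Tenm4. At least as many CG as in the stretch itself were found in 49.2%, 52.5%, 62.6% and 47.2% of windows.

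Positive differences prevailed. The authors' deposited table gave 494 positive and 212 negative values, a positive share of 69.97% (exact 95% interval 66.4% to 73.3%, counting error only). Positive regions had a median of 22.9 points and negative ones of -23.1 points, so both directions lay close to the smallest size listed. The lower and upper quartiles of the size were 21.1 and 25.1 points. A size of 30 points was reached by 47 regions, or 6.66%, 29 of them positive and 18 negative. Of the other tumor regions 9.51% reached it, with 11.5% of the CpG-poor regions within 10 kb and 6.89% of those beyond 100 kb. The interval treats regions as separate counts, although all 706 come from the same 6 tumors.

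**Figure D1:**
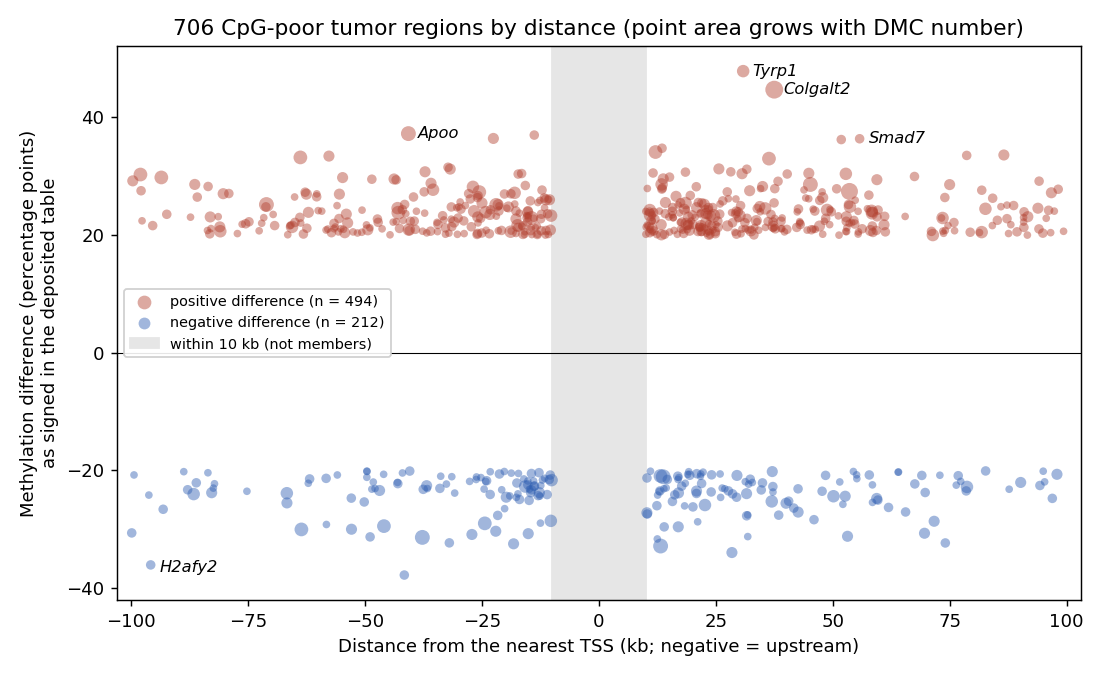
Methylation difference in percentage points (vertical axis, sign as in the authors' deposited table) against distance from the nearest TSS in kb (horizontal axis, negative upstream) for the 706 distal CpG-poor regions, 1 point each, with larger points for more differentially methylated CpGs. Most points lie just beyond 20 points in either direction, and Tyrp1 (47.9 points) and Colgalt2 (44.7 points) stand above the rest.

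The share of positive differences was set beside that of the other tumor regions. Of all 841 other tumor regions, 569 were positive (67.7%), a share inside the interval given above for the distal CpG-poor regions. Among CpG-poor regions at up to 10 kb from a TSS, 197 of 304 were positive (64.8%, exact 95% interval 59.1% to 70.2%). Beyond 100 kb it was 273 of 334 (81.7%, 77.2% to 85.7%). Inside the distance window itself, 120 of 184 regions at 10 to 20 kb were positive (65.2%), 218 of 304 at 20 to 50 kb (71.7%) and 156 of 218 at 50 to 100 kb (71.6%). The distal CpG-poor regions thus lay between their neighbours on either side in the authors' deposited table, with the 10 to 20 kb regions close to those nearer a TSS. At the same distance but with 10 or more CpG sites, 46 of 92 regions were positive (50%, 39.4% to 60.6%), against 69.97% of the CpG-poor ones. These differences between classes of regions were not tested, since the regions share the same tumors.

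**Figure D2:**
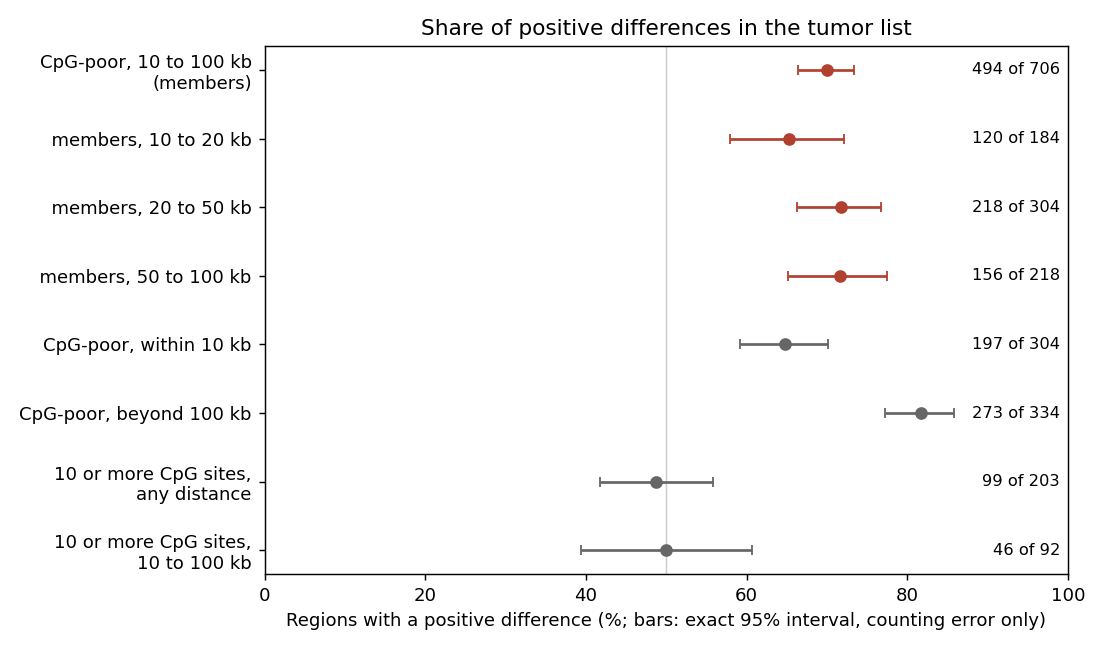
Share of regions with a positive difference (horizontal axis, %) in classes of the authors' tumor list, with counts at the right and exact 95% intervals for counting error as bars. Red marks the distal CpG-poor regions and their distance bins, and grey the other classes, of which the regions with 10 or more CpG sites lie lowest.

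The positive share was also counted by position. Upstream regions were positive in 212 of 314 cases (67.5%) and downstream ones in 282 of 392 (71.9%). By RefSeq gene spans, 223 regions lay inside the span of their nearest gene, 152 inside the span of another gene only, and 331 outside any span. Their positive shares in the authors' deposited table were 72.2% (65.8% to 78.0%), 63.2% (55.0% to 70.8%) and 71.6% (66.4% to 76.4%), with overlapping intervals. By the same RefSeq spans, 53.1% of the distal CpG-poor regions lay inside a gene, against 70.7% of the CpG-poor regions within 10 kb and 38.9% of those beyond 100 kb.

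The regions were short and held few sites, the number of sites being limited by their selection. They had a median length of 125.5 bp (6 to 906 bp) and a median of 4 CpG sites, with 267 regions at the listed minimum of 3. CpG-poor regions within 10 kb and beyond 100 kb were alike, with median lengths of 134.5 and 109 bp and a median of 4 sites each. A single differentially methylated CpG (DMC, a site that the authors called on its own) supported 282 distal regions, or 39.9%. The share was 41.4% in the CpG-poor regions within 10 kb and 41.9% in those beyond 100 kb. In the distal regions, the median size with 1 DMC was 21.9 points in the authors' deposited table, with 2 it was 23.3 points, with 3 it was 24.6 points and with 4 or more 24.5 points. The positive share was 68.4%, 70.4%, 71.1% and 73.3% in the same order. Just inside the limit on sites, 17 of 19 regions with 9 CpG sites were positive, and just outside it 10 of 14 with 10 sites at the same distances.

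**Figure D3:**
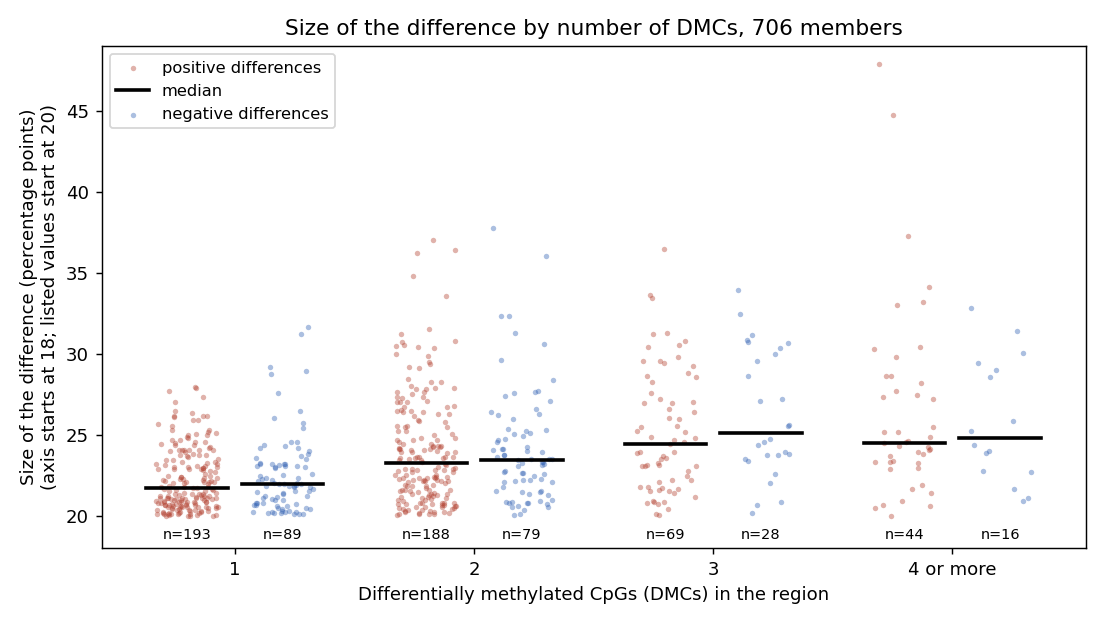
Size of the methylation difference in percentage points (vertical axis, starting at 18) by the number of DMCs in the region, 1 point per region, with positive differences in red, negative ones in blue and medians as black bars. Regions with 1 DMC have a median of 21.9 points and none of the 2 largest values.

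The largest positive difference of all, also in the whole tumor list, was near Tyrp1, which encodes a pigment enzyme of melanosomes (chr4:80865082-80865156, mm10). The authors' deposited table gave 47.9 points with all 4 sites DMCs, 30870 bp downstream of the TSS and outside any gene span. It was followed by Colgalt2, a collagen galactosyltransferase gene, with 44.7 points and all 9 sites DMCs inside the gene (chr1:152437379-152437737). These 2 regions stood apart from the others, the next being 37.3 points.

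The other 8 of the 10 largest positive differences lay between 33.6 and 37.3 points in the authors' deposited table. They were near Apoo, which encodes a subunit of the mitochondrial cristae complex MICOS (37.3 points, 6 of 7 sites DMCs, X chromosome), and Stam2, an endosomal sorting adaptor gene (37.0 points). Utp20, a ribosome biogenesis gene (36.4 points, all 3 sites DMCs), and Smad7, the inhibitory Smad of TGF-beta signalling (36.4 points, 55758 bp downstream), came next. Then followed Rbmx2, an RNA-binding protein gene (36.2 points), the transmembrane collagen gene Col13a1 (34.8 points), and Zak, now named Map3k20, a kinase gene of the ribotoxic stress response (34.1 points, 5 of 6 sites DMCs). Phactr3, which encodes a regulator of protein phosphatase and actin, completed the 10 (33.6 points, all 3 sites DMCs). The Col13a1, Zak and Phactr3 regions lay inside those genes, that of Apoo inside the span of Gm14826, and the other 4 outside any span.

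Of the 10 largest negative differences, 9 are given here. The authors' deposited table had -36.1 points near H2afy2, which encodes the histone variant macroH2A2, and -34.0 points inside Arhgef28, a guanine nucleotide exchange factor gene. It then listed the transcribed pseudogene E530001F21Rik (-32.8 points, 6 of 8 sites DMCs), BC026585, now named Cryzl2 (-32.5 points), and the ubiquitin ligase gene Trim32 (-32.3 points, inside the span of the neuronal gene Astn2). Mms22l, a replication fork repair gene (-32.3 points), Sema6d, a semaphorin gene (-31.6 points), the heparan sulfate sulfotransferase gene Hs6st1 (-31.4 points, 6 of 7 sites DMCs) and Tmem132e (-31.3 points) completed the 9. Of these 9, only the Arhgef28 and Sema6d regions lay inside the span of their nearest gene.

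In 13 regions (1.84%, against 1.90% of the other tumor regions) every site was a DMC, 10 positive and 3 negative. Besides Tyrp1 and Colgalt2, only 1 of them had more than 3 sites, near Mir692-1 (chr17:6841571-6841750), with all 8 sites DMCs and 27.4 points in the authors' deposited table. Mir692-1 belongs to a miRNA family with several gene copies, and whether reads there were placed on 1 copy only was not tested. By number of DMCs, the positive regions near Colgalt2 (9), Mir692-1 (8), Apoo (6), the synaptic Arf exchange factor gene Iqsec3 (6 of 9 sites, 28.6 points) and the chemokine gene Ccl1 (6 of 8 sites, 25.2 points) led. On the negative side these were E530001F21Rik, Hs6st1 and the ephrin receptor gene Epha8 (6 each; Epha8 -21.1 points), then 6030407O03Rik (5 of 8 sites, -30.02 points, inside the tensin gene Tns1) and the adenylyl cyclase gene Adcy1 (5 of 6 sites, -29.5 points).

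The Col13a1 locus held regions of large size and of both signs. The authors' deposited table listed 4 distal CpG-poor regions inside its span, under 2 gene names. Counted downstream from the Col13a1 TSS, they were 34.8 points at 13528 bp, 21.8 points at 25040 bp, -36.1 points at 99465 bp and 26.5 points at 129948 bp. The last 2 were listed for H2afy2, the neighbouring gene. Near the final one, at 125519 bp, a CpG-dense region with 20 sites was positive too (23.7 points), so 1 negative region stood among 4 positive ones.

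**Figure D4:**
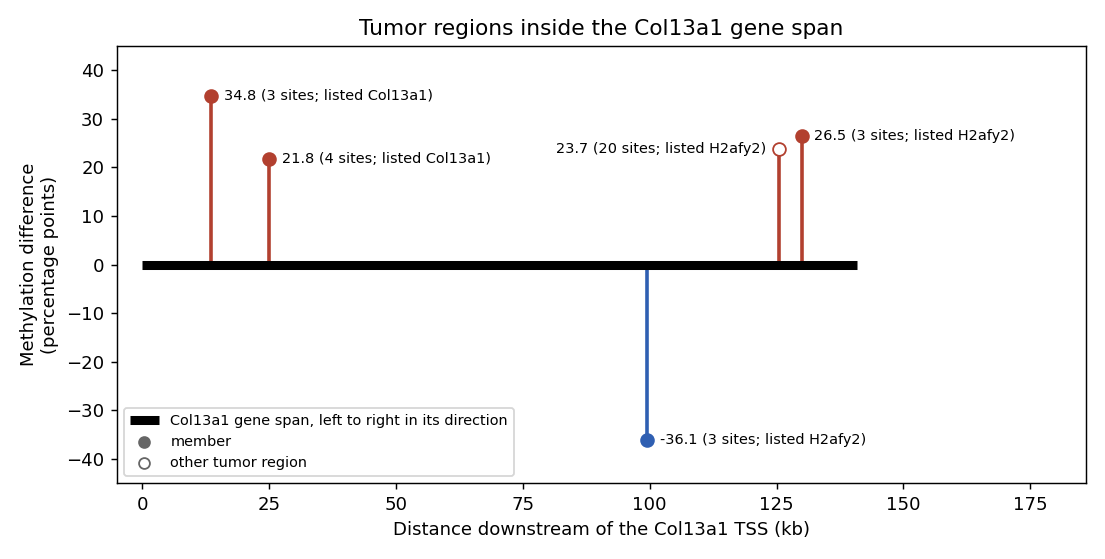
Tumor regions inside the Col13a1 gene span: distance downstream of the Col13a1 TSS in kb (horizontal axis) and methylation difference in percentage points (vertical axis), labelled with the number of CpG sites and the listed gene. Filled points are distal CpG-poor regions and the open point is a CpG-dense region. The negative value at 99465 bp (-36.1 points) lies between positive ones on both sides.

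Few genes had several distal CpG-poor regions. The 706 regions named 659 genes, of which 42 had 2 regions and 2 had more. The adhesion receptor gene Gpr133, now named Adgrd1, had 4, all positive, at 24.1, 20.8, 24.3 and 20.5 points in the authors' deposited table (26625 bp upstream to 58600 bp downstream). The integrin gene Itga9 had 3 inside its span, with 22.9 and 24.1 points and, farthest downstream, -21.9 points. Of the 42 genes with 2 regions, 21 had both positive, 2 both negative and 19 one of each sign. Pairs with the largest mean size in the authors' deposited table, after H2afy2 and Col13a1, were Chchd3 (33.6 and -21.4 points), a MICOS gene like Apoo, Haao (33.2 and 21.1 points), an enzyme gene of tryptophan breakdown, and C530008M17Rik, now named Cracd (-29.2 and -24.6 points).

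Regions close to each other did not always share a sign. Only 6 pairs lay less than 10 kb apart, and 4 of these held 1 positive and 1 negative region in the authors' deposited table. The nearest such pair, inside the Erich6b gene and 1894 bp from end to end, had -23.1 and 24.7 points. The pairs at 4933427I22Rik (20.2 and -23.5 points), inside the immunoglobulin superfamily gene Igsf3 (-20.6 and 21.3 points) and inside the channel-interacting protein gene Kcnip2 (-22.6 and 21.7 points) were mixed too. Both regions were positive in the pairs at Gpr133 and inside the kinesin gene Kif5a (23.2 and 23.3 points). Tumor regions outside the class lay as close to 4 distal CpG-poor regions, and 3 of these 4 pairs shared a sign, namely those at Col2a1, Usp20 and H2afy2. At the phosphatase gene Ptpn13, the distal region had 21.7 points and a CpG-dense one 9636 bp away -25.1 points in the authors' deposited table.

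Lists of genes were compared with the class as a whole, in which 69.97% of regions were positive and the median size was 23.0 points. The lists are partial and name nearest genes only, and no list was tested. Ion channel and neurotransmitter receptor genes had 23 regions, 19 positive and 4 negative. Among the 28 other tumor regions of that list, 19 were positive. The largest in the authors' deposited table included those inside the potassium channel gene Kcnc1 (24.4 points), the pacemaker channel gene Hcn4 (24.3 points), the adrenergic receptor gene Adra1d (24.1 points) and the calcium release channel gene Ryr2 (23.96 points). The sodium channel gene Scn3a followed (23.8 points, 42835 bp upstream). The 4 negative regions were at Hcn4, 26385 bp downstream (-23.0 points), Trpa1 (-22.8 points), Adra2c (-21.1 points) and Cacng2 (-20.2 points). By gene span, 8 further regions fell inside genes that the list's name patterns take in, among them the glycine receptor gene Glra1 (-31.2 points, all 3 sites DMCs, listed for Gm12238).

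The list of developmental transcription factor genes had 21 regions, 15 positive and 6 negative. Of the 30 other tumor regions of that list, 21 were positive. Factor genes that it does not name had both signs, such as Dach1 (31.2 points), Bcl11b (27.4 points) and Max (-23.4 points). Within the list, the largest in the authors' deposited table were near the heart factor gene Hand1 (27.0 points), Lhx1os (25.5 points), Irx1 (24.9 points), the forkhead gene Foxl1 (24.5 points, 4 of 9 sites DMCs), Runx1 (24.1 points, inside the gene) and Foxk1 (23.1 points). Runx1, a factor of blood cell development, and its relative Runx3 had 2 regions each, all positive. The negative ones were at Pax7 (-22.3 points), Sox1 (-22.3 points), Six3os1 (-22.0 points), Gata4 (-21.2 points), Otx2os1 (-20.8 points) and Lhx5 (-20.8 points). Of the 21 regions, 5 were listed for transcripts antisense to or overlapping a factor gene (both Lhx1os regions, Six3os1, Otx2os1 and Sox2ot). Solute carrier and ABC transporter genes had 19 regions, 14 positive and 5 negative, and 15 of the 19 other tumor regions of that list were positive. The authors' deposited table gave Slc5a3, a myo-inositol transporter gene, at 27.0 points, Slc9a4 at 25.9 points, Slco5a1 at -25.5 points, the mitochondrial ADP/ATP carrier gene Slc25a4 at 25.2 points, Slc35b4 at 24.3 points and Slc4a3 at 23.3 points. Slc7a11, the cystine importer that feeds glutathione synthesis, had a positive region 17471 bp downstream of its TSS (21.0 points) and a negative one at 55111 bp (-20.7 points), both inside the gene with 1 DMC among 3 sites.

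**Figure D5:**
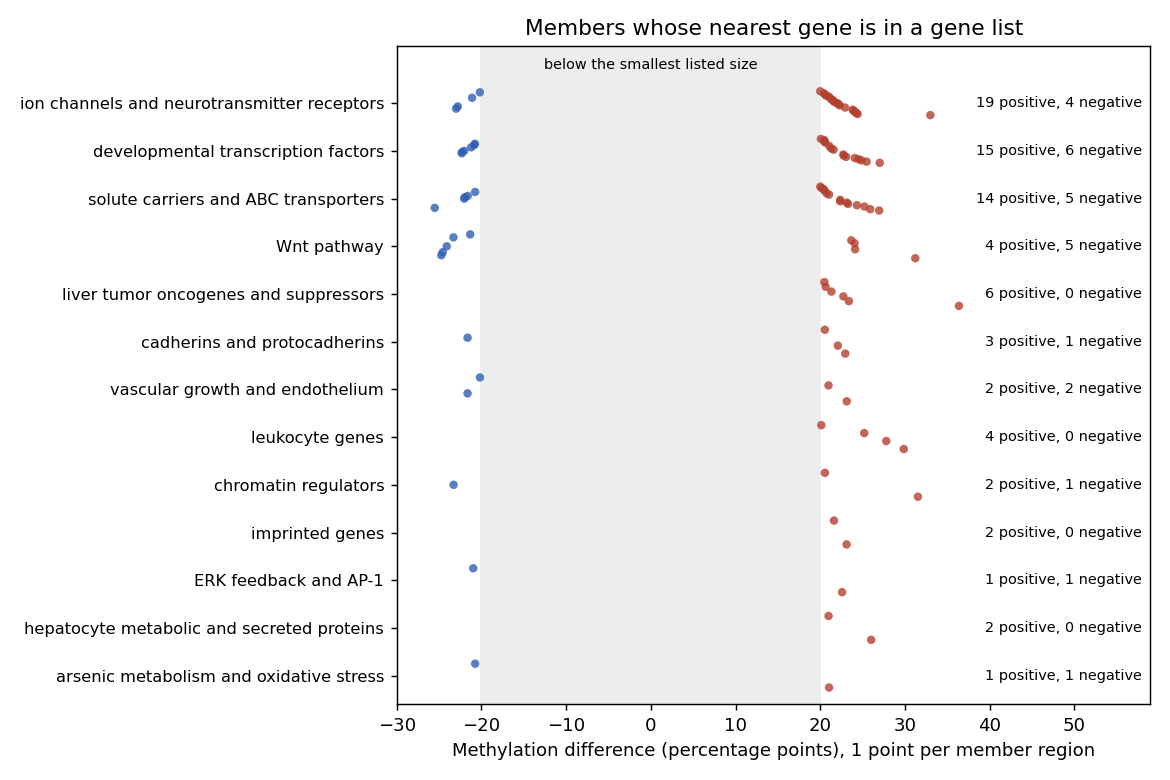
Methylation difference in percentage points (horizontal axis) of each distal CpG-poor region whose nearest gene belongs to a gene list (vertical axis), with counts by sign at the right. The grey band holds no values because no listed difference is smaller than 20 points. Of the lists with over 8 regions, that of the Wnt pathway has 4 positive and 5 negative points, and each of the others has more positive than negative ones.

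Wnt pathway genes, whose ligands and receptors control zonation and growth of hepatocytes, had 4 positive and 5 negative regions. Of the 10 other tumor regions of that list, 4 were positive. The ligand genes Wnt3 (-23.3 points) and Wnt4 (-21.3 points) and Porcn, the acyltransferase that all Wnt ligands need (-24.1 points), were negative in the authors' deposited table. The agonist gene Rspo4 (31.2 points, all 3 sites DMCs), the receptor gene Fzd9 (24.1 points) and the ligand transporter gene Wls (24.1 points) were positive. Ror2, a Wnt5a receptor gene, held 1 region of each sign, 23.7 points at 22895 bp and -24.7 points at 96943 bp downstream, and the inhibitor gene Apcdd1 was negative (-24.6 points). Liver tumor oncogenes and suppressors had 6 positive regions and 0 negative, namely Smad7, the growth factor receptor genes Fgfr1 (23.4 points, inside the gene) and Fgfr2 (22.7 points), Smad2 (20.6 points) and both Runx3 regions (21.3 and 20.5 points). Of the other 6 tumor regions of that list, 3 were positive. That list is partial: it does not name Il6st, whose region was negative (-29.0 points, 5 of 7 sites DMCs). Other tumor genes outside the list were not counted. The leukocyte list is partial. Each of its 4 regions was positive in the authors' deposited table, among them Irf8, a factor of macrophage and dendritic cell development (27.8 points, 98200 bp downstream), Ccl1, and the natural killer receptor gene Klra5 (20.1 points). Leukocyte genes that the list does not name had both signs, such as Cd6 (-23.9 points), Cd200r2 (-23.1 points) and Skap1 (30.6 points). Outside the distance and CpG limits, 6 of 10 tumor regions of that list were positive.

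The remaining lists had 2 to 4 regions each. Their other tumor regions were positive in 4 of 5 cases for vascular genes, 8 of 10 for cadherins and 3 of 7 for chromatin. The counts were 1 of 2 for imprinted genes, 0 of 2 for hepatocyte genes and 4 of 5 for ERK feedback and AP-1. For arsenic and oxidative stress it was 1 of 1. Of the vascular genes, the VEGF receptor gene Flt1 had 2 positive regions inside the gene (23.1 and 20.98 points), while Flt4, the lymphatic VEGF receptor gene (-20.2 points), and the endothelial cadherin gene Cdh5 (-21.6 points, 4 of 8 sites DMCs) were negative in the authors' deposited table. Among cadherins, Cdh22 (22.96 points) and both Cdh13 regions (22.1 and 20.5 points) were positive beside Cdh5. The chromatin list had Phf6 (31.5 points), the histone demethylase gene Kdm4c (-23.3 points) and Phf21b (20.6 points). The imprinted genes Rasgrf1 (23.1 points) and Sfmbt2 (21.6 points) were positive, as were the sulfotransferase gene Sult2b1 (26.0 points) and the insulin receptor substrate gene Irs1 (20.99 points) of the hepatocyte list. Atf3, a stress-induced AP-1 partner (22.6 points), and Dusp6, an ERK phosphatase gene (-20.97 points), had opposite signs. In the arsenic and oxidative stress list, the 2 regions of Slc7a11 were the only ones. That list is partial and does not name the peroxiredoxin gene Prdx6, whose region was positive (20.2 points, 2 of 6 sites DMCs).

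Noncoding genes were the nearest ones in part of the class. A long noncoding RNA gene was nearest to 83 regions, 55 of them positive (66.3%), and a miRNA gene to 23, of which 15 were positive (65.2%). For comparison, 418 of 590 regions nearest to a protein-coding gene were positive (70.8%). No region overlapped a miRNA hairpin, but the distance limit already keeps regions off the hairpins of listed miRNA genes. Among the 23 regions, the largest positive value in the authors' deposited table was at Mir5118 (30.5 points) and the largest negative one at Mir139 (-25.3 points, inside Pde2a), and the region 22570 bp downstream of Mir802, a miRNA abundant in liver, was positive (25.2 points).

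By chromosome, the positive share was highest on chromosome 2 among those with at least 10 regions, with 52 of 59 regions (88.1%, exact 95% interval 77.1% to 95.1%) in the authors' deposited table. The other tumor regions of chromosome 2 were positive in 49 of 69 cases (71.0%, 58.8% to 81.3%). Chromosome 17 had the lowest share, 15 of 28 (53.6%, 33.9% to 72.5%), and its other tumor regions stood at 17 of 37 (45.9%). Chromosomes 2 and 17 were picked as the extremes, and their intervals do not allow for that choice. The X chromosome, of which males carry 1 copy, had 18 of 30 positive (60.0%) and 6 regions of at least 30 points (20%). In the whole class 6.66% reached that size, and on chromosome 10 it was 6 of 34 regions. The other tumor regions of X reached it in 7 of 42 cases (16.7%).

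In normal liver, the same limits on sites and distance took in 56 of the 107 listed regions, with 20 positive (35.7%, exact 95% interval 23.4% to 49.6%), against 69.97% in tumors. In non-tumor liver they took in 25 of 57, with 13 positive (52.0%, 31.3% to 72.2%). Whether the sign runs the same way in the 3 lists is not stated in the sources used here. Of the 706 tumor regions, 6 overlapped a region of the normal list by at least 1 bp and 0 one of the non-tumor list. Overlaps of the 841 other tumor regions were not counted, so whether these numbers are particular to the class is not known.

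Of the 6 regions shared with normal liver, 3 had the same sign and 3 the opposite one in the authors' deposited tables. Those near Slfnl1 (23.3 points in tumors and 27.2 in normal liver), Aym1 (30.4 and 21.6 points) and Prps1, a nucleotide synthesis gene (-20.2 and -20.6 points), kept their sign. The region inside Mlana, a melanosomal antigen gene, had -27.2 points in tumors and 22.1 points in normal liver (chr19:29708237-29708303 in the tumor list). The region listed for Mfsd9, inside the sodium/proton exchanger gene Slc9a2, had -25.9 and 21.8 points, and that near Gm5936 on the X chromosome, with the same start and end in both lists, -23.1 and 21.7 points. If the sign of the normal list alone were reversed, these 3 would match and the first 3 would not.

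At the near limit of distance, the regions of Snord93 (24.0 points, 10066 bp) and Cdh5 (-21.6 points, 10075 bp) were just inside, and those of Slain1os (24.0 points, 9983 bp) and 1700023L04Rik (26.3 points, 9793 bp) just outside. At the far limit, Riok2 (-30.6 points, 99812 bp) and Ankrd55 (29.2 points, 99587 bp) were just inside in the authors' deposited table, and Insig2 (29.9 points, 100512 bp) and Cnga3 (20.5 points, 100591 bp) just outside. The distance also depends on which starts were annotated: 99 of the 706 regions lay within 10 kb of some start in the RefSeq promoter table, and 67 of those were positive. The 18 regions on chromosome 18 were not compared with that table.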

How the data were processed

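Per the submitters' processing notes, reads were handled with Trim Galore and Bismark on mm10, and methylKit and bedtools 2.25.0 were also named. How regions were called, and with which coverage and thresholds, is not given in the sources used here. The deposited tables hold 1 list of regions per tissue. Their methylation difference is a signed score in percentage points that the authors computed for a whole comparison, and their numbers of CpG sites and DMCs are whole numbers of sites, not reads. Depth per sample is unknown here, so no limit of detection is given.

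Members and lists were chosen with earlier results of these data known. Regions were selected, counted and summarised with Python 3.11.15, pandas 2.3.3 and scipy 1.17.1. The 95% intervals of shares are exact (Clopper-Pearson) and reflect counting error alone. No test was run, because there are no values per sample and regions are not replicates. In all 706 regions length and TSS distance were recomputed from the coordinates and equalled the listed ones within 1 bp. RefSeq matched 692 nearest genes by accession after leading zeros were restored, 10 by symbol, 3 by an older symbol, and 1 (Ear3) was not matched. RefSeq gene spans (GRCm38.p6) place regions inside or outside genes, and exons and introns were not told apart. Regions count as overlapping when they share at least 1 bp. The text names the 10 largest differences of each sign, the 5 regions of each sign with the most DMCs, genes with 3 or more regions, the pairs with the largest mean size, up to 6 regions per gene list by size, regions shared between lists, close pairs, and those next to the limits. Negative regions of the ion channel and transcription factor lists, the promoter overlaps, Mir802 and the Col13a1 locus were named after their values were seen. Overlap and interval code was tested on simulated regions. A few regions that this rule names are not reported here.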

Additional observations from a re-analysis of the deposited data

How the results depend on the processing

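The positive share of distal CpG-poor regions stayed between 69.2% and 71.6% under 8 other selections of regions and was 70.3% in the 607 regions not found within 10 kb of a RefSeq promoter-table start, a selection chosen after seeing the data. Every selection was a part of the same 706 regions, so staying inside the interval of the full set is a weak check. Of 44 recomputed values, 40 stayed inside the 95% interval of the value reported, among them every positive share, share inside a gene span and share upstream. The other 4 follow from how those selections pick regions: the share resting on 1 DMC was 16.8% with a difference of at least 25 points and 55.5% with fewer than 5 CpG sites, against 39.9%, and the median size was 23.8 points with at least 2 DMCs and 27.6 points with a difference of at least 25 points, against 23.0 points. No paired analysis was possible because the lists hold no values per sample. For the same reason leaving out each replicate was not run. The main limits are the undefined sign, the unknown depth and coverage filter, the use of control tumors from an earlier deposit, and the minimum size of 20 points, below which nothing is listed.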
